A study of Mus musculus with 6 samples.

Results

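Hand1 and Hand2 were followed across cells of the heart, the mesoderm around it and the neural crest of the mouse embryo at E10.5, mid-gestation. They are 2 of the 32285 genes in the deposited table, taken by their symbols: Hand1 (ENSMUSG00000037335) and Hand2 (ENSMUSG00000038193). All embryos were wild type C57BL/6, and their cardiogenic region was microdissected, dissociated and run through a droplet assay that counts the 3′ ends of RNA molecules by unique molecular identifiers (UMIs). By the labels the mothers of 3 samples had received vehicle and were normal glycemic, those of the other 3 had received streptozotocin and were hyperglycemic, and all fathers were normal glycemic. The series asks about cardio-pharyngeal development under maternal diabetes. The cells of all 6 samples stand in 1 matrix of 6 libraries, told apart by barcode suffix, and which suffix belongs to which sample is not given in the sources used. The treatments were therefore not compared, no test between libraries was made, and each library is given as a value without a group.

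Hand1 and Hand2 encode basic helix-loop-helix transcription factors of the Twist family. Such factors bind DNA in pairs, usually with a widely expressed partner such as Tcf3, Tcf4 or Tcf12 (the E proteins), at the sequence CANNTG (the E-box), while Id proteins, which lack the DNA-binding part, take the partners away. In the embryonic heart Hand1 is known as a gene of the outer curvature of the left ventricle and of the outflow tract, and Hand2 as a gene of the right ventricle, the second heart field, the endocardium and the epicardium. In the pharyngeal arches Hand2 is a target of the endothelin and Dlx5/Dlx6 pathway that sets the distal (lower jaw) identity of crest cells, and in the sympathetic ganglia it belongs to the noradrenergic programme.

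Barcodes entered if they showed 2500 genes or more and if mitochondrial transcripts made up no more than 10% of their UMIs, which left 35962 of 53362. The libraries held 4903 to 7136 kept cells with medians of 30533 to 35634 UMIs. Library 1 carried Xist at 383 CPM (UMIs per 1000000 UMIs of the cells summed) and Ddx3y at 0.0908 CPM, whereas Ddx3y was at 33.8 to 38.1 CPM in the other 5 libraries, so library 1 differed from them in sex. Of the kept cells, 2890 (8.04%) had a barcode sequence that recurred in another library, and 283 shared it with another kept cell. Each kept cell was assigned to a gate by its markers, such as at least 6 of 8 sarcomere genes at 2 or more UMIs for myocardium. Neither Hand gene was among the markers. The thresholds of the gates were set after these data had been seen. They cut a continuous range: 304 of 3099 myocardial cells and 534 of 856 smooth muscle cells stood exactly at the threshold, and 1001 ungated cells were 1 marker below that of smooth muscle. Cells that passed gates of several separate lineages were set aside (375 cells, 1.04%), and 7712 cells (21.4%) passed no gate.

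Hand2 lies at chr8:57320983-57324633 on the + strand and Hand1 at chr11:57828705-57832818 on the - strand (GRCm38, the build named mm10 in the submitters' processing notes, with the GENCODE M21 annotation). Hand2os1 (ENSMUSG00000100510), a non-coding RNA, lies on the opposite strand at chr8:57281117-57324233. In GENCODE M21 it starts inside Hand2 and overlaps it by 3251 bases, while the RefSeq start lies just upstream of Hand2, so that the genes point away from each other there. The strand setting of the counting is not given in the sources used here. The 3′ ends of the 2 genes, where this assay reads, are 43.5 kb apart. The 250 bases before the start of Hand2 are shown because the Hand2 and Hand2os1 levels moved together across cell types. The sequence is from the RefSeq promoter table of GRCm38.p6. Capitals mark the 123 bases between the RefSeq start of Hand2os1, at position 57320859, and the start of Hand2.
Hand2 upstream region, chr8:57320733-57320982, + strand: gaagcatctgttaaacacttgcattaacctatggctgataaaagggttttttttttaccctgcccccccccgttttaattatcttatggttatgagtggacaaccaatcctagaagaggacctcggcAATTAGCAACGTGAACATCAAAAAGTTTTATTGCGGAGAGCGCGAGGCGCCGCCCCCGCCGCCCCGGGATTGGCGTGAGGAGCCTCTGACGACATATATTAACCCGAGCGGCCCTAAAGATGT
The E-box letters CANNTG occurred at 2 places, both in the lower-case part, and the letters GATA, read on both strands, also at 2. Of the 32851 promoter windows of this length in the table, 66.2% held CANNTG and 53.6% held GATA. The TATA-box letters TATAAA had no match on either strand here and one in 12.4% of the windows.

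Hand1 was concentrated in few cell types and Hand2 was spread over many. Over all kept cells Hand1 had 37918 UMIs in 5246 cells (14.6%) and Hand2 had 79619 UMIs in 16146 cells (44.9%). In erythroid cells, where neither gene is expected, Hand1 was found in 1.8% of cells and Hand2 in 4.02% at a median depth of 64865 UMIs, with summed levels of 0.85 and 1.72 CPM. These levels were taken as the background. Most other gates were shallower, such as atrial myocardium at a median of 40582 UMIs, so the background may differ there. Of erythroid cells with Hand1, 61.5% also had Hand2, against 2.96% of the others, so these UMIs were not spread evenly over cells. The cause was not tested. Intervals given below are exact 95% intervals (Poisson for CPM, Clopper-Pearson for shares) and cover counting error only, not differences between embryos.

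Hand1 was highest in cells of the smooth muscle gate, at 237 CPM (interval 231 to 243). The 6 libraries, in order, read 341, 242, 257, 178, 171 and 225 CPM, each above the same library's next gate. Outflow myocardium followed at 139 CPM, with 147, 131, 140, 158, 112 and 145 CPM in the libraries. The smooth muscle and outflow ranges did not overlap. That separation was lost when Rgs5, a pericyte and smooth muscle gene that followed Hand1 closely, was taken out of the smooth muscle markers: the gate then held 548 cells at 180.1 CPM, with libraries from 110 to 330 CPM. Libraries 4 (118 CPM) and 5 (109.6 CPM) were then below their outflow values of 158 and 112 CPM. The smooth muscle gate also rested on some of its markers more than on others, since 809 of its 856 cells had 2 or more UMIs of Tagln and 765 of Acta2, but 28 of Myh11, a marker of mature smooth muscle.

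Cushion mesenchyme stood next for Hand1, at 102 CPM. The libraries ranged from 16.8 in library 3 to 136 in library 2, so the cushion range overlapped both its neighbours in the order. With 1 more marker required the cushion level was 65.0 CPM. Ventricular myocardium held Hand1 at 82.3 CPM, with 100.2, 60.5, 99.3, 80.1, 55.7 and 90.8 CPM in the libraries, and the remaining myocardium 52.7 CPM. Atrial myocardium had 2.31 CPM (libraries 1.27 to 3.99), against 0.85 CPM in erythroid cells, or 3.75 CPM with gates drawn from thinned cells, so that Hand1 ranged over more than an order of magnitude within the myocardium. The anterior heart field (31.2 CPM), Dlx5/6-positive crest without Hox genes (27.1 CPM) and posterior heart field (26.6 CPM) overlapped each other, with no order kept in all libraries. The posterior field was at 15.7 CPM with 1 more marker required. Hand1 was at 4.64 CPM in epicardium, or 2.96 CPM with 1 more marker required, and at 2.25 CPM in endocardial endothelium. Library 1 carried most of the endocardial value, which was 0.81 CPM without it. Ungated cells, with a median depth of 23030 UMIs, held 24.9% of all Hand1 UMIs, and smooth muscle cells 16.9%.

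**Figure D1:**
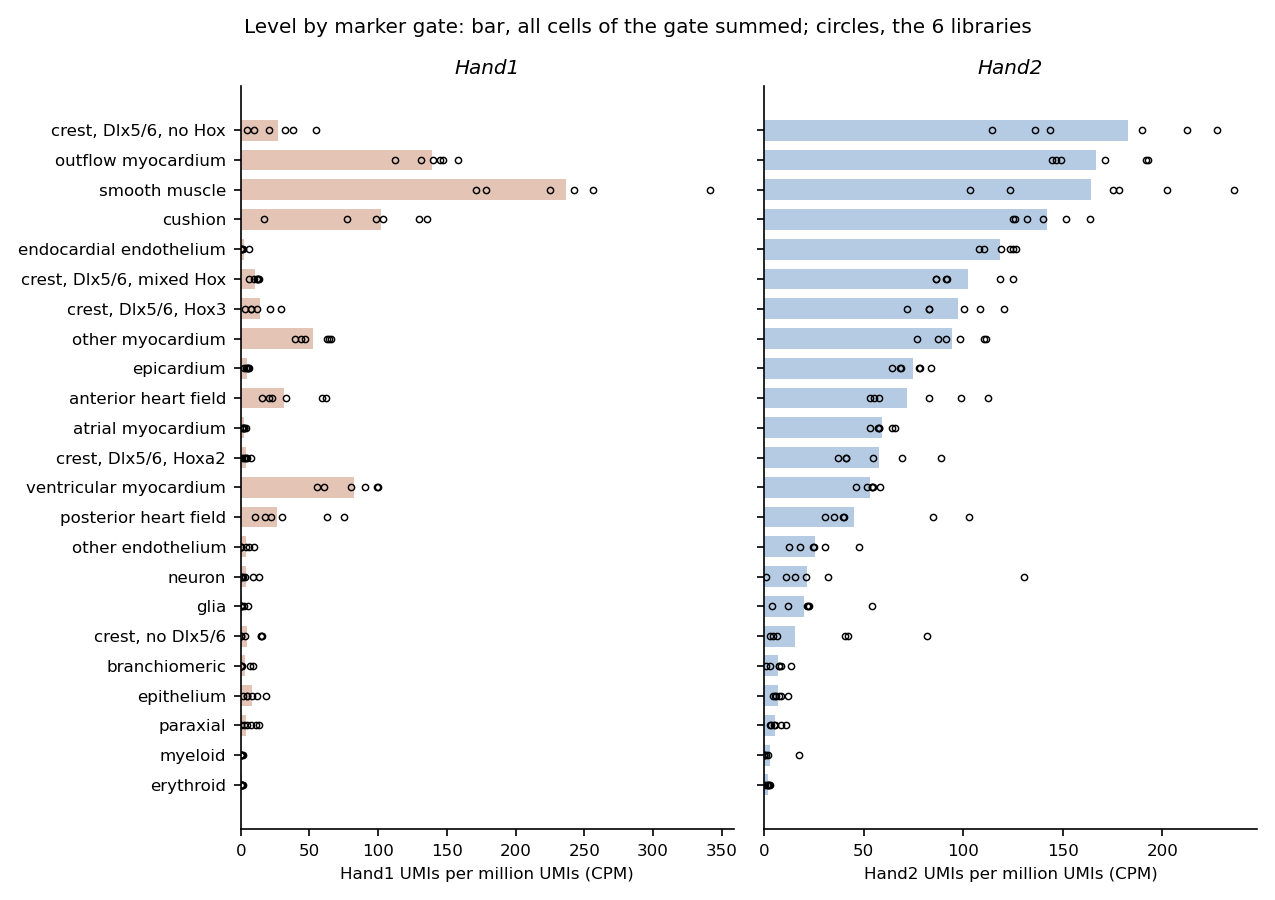
Levels of Hand1 (left) and Hand2 (right) in each marker gate, in CPM on linear axes that differ in range; bars sum all cells of the gate and circles are the 6 libraries. Hand1 stood highest in smooth muscle (237 CPM) and near 0 in atrial, epicardial and endocardial cells, where Hand2 was at 59.1, 75 and 118 CPM.

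Hand2 was high in crest cells that carried Dlx5 or Dlx6 and no detected Hox gene, the pattern of the first pharyngeal arch, and in outflow myocardium, smooth muscle and cushion. The crest cells read 183 CPM (interval 176 to 189), with 114, 136, 190, 228, 212 and 144 CPM in the libraries. The value of this class moved when the gates were redrawn: with gates drawn from thinned cells it read 108 CPM for Hand2 and 8.27 CPM for Hand1. With the class kept and its 553 deep enough cells thinned, the values were 169 and 26.2 CPM. The cells of the class had a median of 30585 UMIs, and the cause of the move was not tested. The class stood above outflow myocardium in 3 of 6 libraries, and below it (160.0 CPM) with gates drawn from thinned cells. Outflow myocardium (167 CPM), smooth muscle (164 CPM) and cushion (142 CPM) came next, and the ranges of all 4 overlapped. Endocardial endothelium had a narrow range, 125.0, 110.3, 123, 119, 108 and 127 CPM, around 118 CPM. Epicardium held 75 CPM (64.3 to 83.9), atrial myocardium 59.1 CPM (53.3 to 65.6) and ventricular myocardium 53.3 CPM (46.0 to 58.0). Hand2 was thus at a like level in both chambers, while Hand1 was not. Branchiomeric muscle precursors (7.19 CPM), epithelium (7.15 CPM) and paraxial mesoderm (5.43 CPM) stood lowest among the larger gates other than blood.

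The share of Hand1 in the summed UMIs of both genes put the gates in an order of their own. It was 60.7% in ventricular myocardium (libraries 51.1 to 64.8%), 59% in smooth muscle (52.1 to 62.8%), 45.5% in outflow myocardium (40.5 to 52.2%) and 41.7% in cushion (11.3 to 46.0%). Epithelium, at 52.7% (26.3 to 77.2%), and paraxial mesoderm, at 43.2% (3.85 to 71.1%, from 95 Hand1 UMIs), stood among these gates. The share was 3.76% in atrial myocardium (2.17 to 5.87%), 5.83% in epicardium and 1.87% in endocardial endothelium. The endocardial libraries ran from 0.093 to 4.49%, and without library 1 the share was 0.697%. These shares are compared between gates and say nothing of protein amounts.

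Within the ventricular gate Hand1 was highest in cells with 2 or more UMIs of the left ventricular genes Tbx5, a T-box factor of the left ventricle and atria, and Cited1, a transcriptional co-regulator. Cells with 2 or more UMIs of both had Hand1 at 129 CPM (425 cells), with libraries at 140, 97.7, 148, 123, 102 and 143 CPM. Cells with neither had 19.6 CPM (50 cells), with libraries at 19.0, 28.2, 5.93, 28.8, 7.24 and 22.7 CPM. Hand1 was higher in the Tbx5 and Cited1 cells of every library, and the ranges were far apart. Hand2 went the other way: it was at 45.6 CPM in the cells with both genes and at 71.0 CPM in the cells with neither. The 2 Hand2 ranges, 35.1 to 54.0 CPM and 51.2 to 96.6 CPM, overlapped slightly. Cited1 alone split the gate further than Tbx5 alone, since Hand1 was at 25.6 CPM without a Cited1 UMI and at 102 CPM with 2 or more, against 50.1 and 110 CPM for Tbx5. Tbx5 had a lower level than Cited1 in this gate, so cells without a Tbx5 UMI may more often hold its RNA unseen. The splits by each gene are therefore not on equal terms. Cells with a single UMI were no higher than cells with none, at 19.0 CPM for Cited1 and 45.8 CPM for Tbx5. Cells without Cited1 UMIs were shallower (median 39512 UMIs, against 60736), as were cells with neither gene (45547, against 62989 with both), and CPM is relative to that depth.

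Outflow myocardium, gated by genes such as Isl1, Tdgf1 and Rspo3, was high in both members. It was not of 1 kind: 57 of its 495 cells had a UMI of Shox2, a factor of the sinus venosus and pacemaker region. Hand1 was at 36.2 CPM in these and at 151 CPM in the rest. Library 6, which had 6 such cells, went the other way (163 CPM with Shox2 and 143 CPM without). Leaving it out put the Shox2 cells at 21.1 CPM. Hand2 was at 104.5 CPM in the Shox2 cells and 174 CPM in the others, while library 3, with 7 Shox2 cells, read 174 and 171 CPM.

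Among smooth muscle cells Hand1 rose with Isl1, a factor of second heart field progenitors, which is not a marker of that gate but is one of the anterior heart field gate. Cells with 2 or more Isl1 UMIs (462 cells) had Hand1 at 363 CPM, with 424, 358, 382, 316, 351 and 302 CPM in the libraries. Cells without an Isl1 UMI (320 cells) had 58.6 CPM, with 82.8, 46.3, 51.0, 74.8, 40.8 and 82.7 CPM. No library overlapped between these sets, and they had similar depth (medians 30554 and 28497 UMIs). Hand2 was at 233 and 71.0 CPM in the same cells. With the gate redrawn without Rgs5 the Hand1 values were 364 and 37.5 CPM.

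Rgs5 also went with Hand1 in 3 sets of cells outside the smooth muscle gate. This did not hold everywhere, since ventricular myocardium had Hand1 at 82.3 CPM and Rgs5 at 3.14 CPM. The 3 sets were not cleanly apart from the smooth muscle gate. Rgs5 is one of its markers, and 2575 cells passed more than 1 mesenchymal gate. In the cushion gate, cells with 2 or more Rgs5 UMIs (220 cells) had Hand1 at 280 CPM and cells with none 4.06 CPM, or 2.18 CPM without library 4. In the anterior heart field the values were 106 and 1.09 CPM, the latter 0.49 CPM without library 3. In ungated cells they were 197 and 6.77 CPM. In the cushion 2320 Hand1 UMIs were in the Rgs5 cells and 54 in cells without Rgs5. Hand2 differed less, with 189 against 120 CPM in the cushion and 207 against 37.8 CPM in ungated cells. In the anterior heart field Hand2 was at 207 CPM with Rgs5 and 14.2 CPM without.

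Nkx2-5, an early cardiac factor, split the heart fields in the same direction for both members. Anterior heart field cells with a Nkx2-5 UMI (238 cells) had Hand1 at 120 CPM and Hand2 at 177 CPM, against 14.9 and 52.3 CPM in the 1441 cells without. Posterior heart field cells with one (296 cells) had 56.6 and 101 CPM, against 22.6 and 37.6 CPM. Every library showed both directions in both fields. Library levels of the posterior field themselves differed, with Hand2 at 103 and 84.7 CPM in libraries 1 and 2 and at 30.4 to 40.4 CPM in the other 4. The posterior gate held 206 and 218 cells in libraries 1 and 2 and 363 to 850 in the others.

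In endothelium pooled Hand2 was higher with a larger number of endocardial markers (Nfatc1, Npr3 and Gata4) at 2 or more UMIs. It was at 5.78 CPM with none, 38.1 CPM with 1, 106 CPM with 2 and 126 CPM with 3. The libraries ranged from 0 to 9.07 CPM in cells with none and from 106 to 153 CPM in cells with 3, with no overlap. Cells with 2 markers (83.2 to 148 CPM) overlapped those with 3, and library 4 went the other way, from 148 to 106 CPM. Hand1 was at 1.01, 5.11, 4.21 and 1.12 CPM in these 4 classes. Much of it was in library 1, with 14.3 CPM at 1 marker and 15.1 CPM at 2. Leaving out 1 library lowered those classes to as little as 3.01 and 0.70 CPM, and the class with no marker, led by library 4, to 0.10 CPM.

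**Figure D2:**
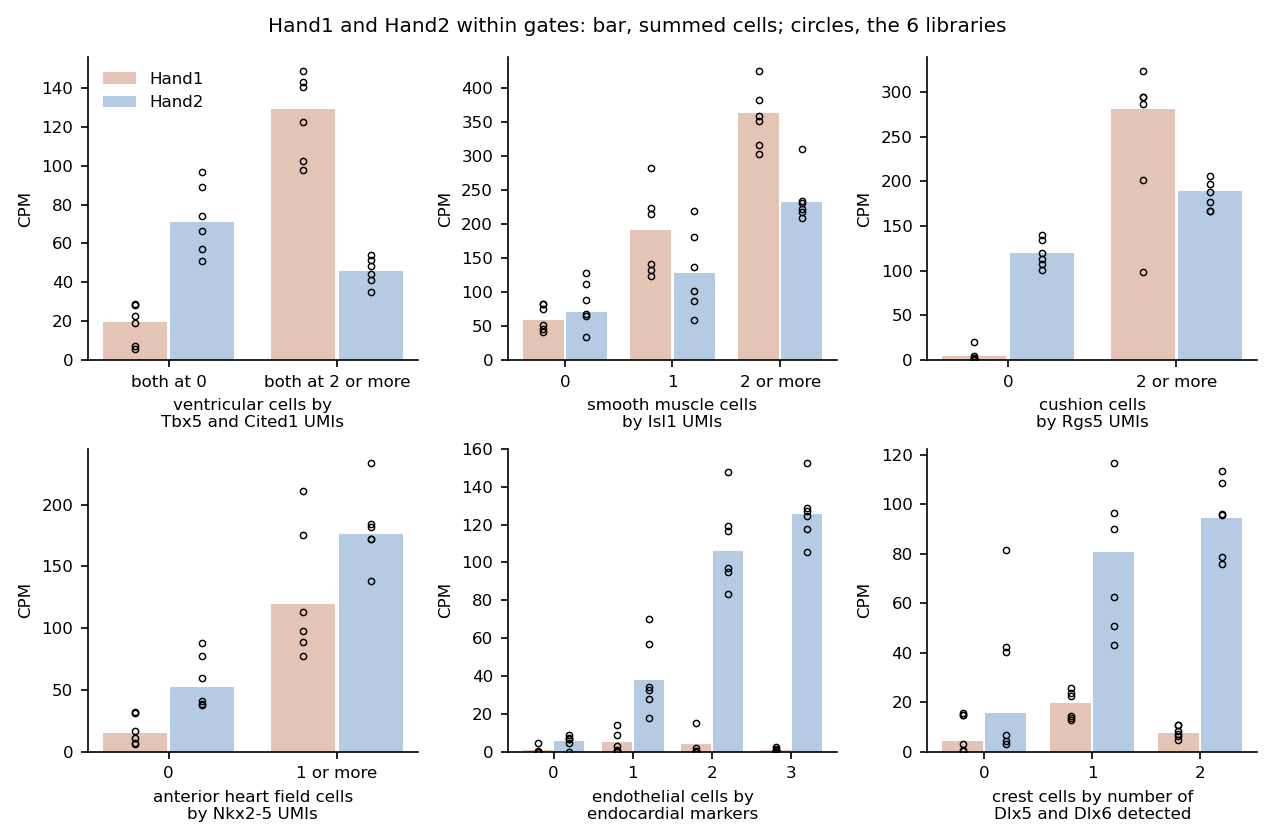
Hand1 and Hand2 levels (CPM, linear axes) within 6 gates, by UMIs or by the number of detected marker genes named under each panel; bars sum the cells and circles are libraries. Hand1 was at 129 CPM in ventricular cells with Tbx5 and Cited1 and 19.6 CPM in cells with neither, while Hand2 read 45.6 and 71.0 CPM.

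Crest mesenchyme was divided by the Dlx genes that pattern the arches along the proximal to distal axis. Hand2 was at 15.6 CPM in cells with neither Dlx5 nor Dlx6 detected (962 cells), 80.7 CPM with 1 of them and 94.2 CPM with both (3859 cells). The first value was 30.3 CPM with gates drawn from thinned cells and 23.6 CPM as the median of the libraries. In cells with neither, libraries 1, 2 and 3 read 40.5, 42.2 and 81.6 CPM and libraries 4, 5 and 6 read 4.38, 6.66 and 2.90 CPM. Each library was lower there than in its cells with both genes, although the ranges overlapped, since the latter began at 76.0 CPM. Among cells with Dlx5 or Dlx6, Hand2 was at 57.5 CPM with 2 or more Hoxa2 UMIs and no Hox3 gene, the pattern of the second arch. Hand2 was at 97.2 CPM where at least 2 of Hoxa3, Hoxb3 and Hoxd3 were present, the pattern of the posterior arches. Both were below the 183 CPM of cells without Hox genes, and in CPM this held in every library. Detection in thinned cells did not keep that order everywhere for the Hox3 class. Among thinned cells without Hand1, Hand2 was found in 48.2% of Hox-free and 60% of Hox3 cells in library 1. In library 2 the shares were 55.6 and 55.9%. Libraries 3 to 6 kept the order, at 70.5 to 88.6% against 34.7 to 51.1%. With gates drawn from thinned cells the Hox-free class read 108 CPM. The remaining 1781 cells with Dlx5 or Dlx6, called mixed here, had Hand2 at 102 CPM and Hand1 at 10.6 CPM. This class also took in cells with a single Hoxa2 UMI, with Hoxb2 alone or with only 1 Hox3 gene. Hand1 was much lower in crest, at 27.1 CPM without Hox genes, 3.62 CPM with Hoxa2 and 14.3 CPM with Hox3 genes. Its libraries ranged from 4.89 to 54.7 CPM in the Hox-free cells.

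Neurons and glia, which at this stage come largely from crest, held Hand2 at 21.6 and 20.1 CPM. Neurons with a UMI of Gata3, a sympathetic factor, had Hand2 at 80.2 CPM and those without 8.07 CPM. This rests on 37 cells, 1 to 11 per library, and the libraries ranged from 0 to 323 CPM. Library 1 (15.8 CPM with Gata3 and 24.5 CPM without) and library 6 (0 and 0.84 CPM) went the other way.

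In single cells Hand1 was mostly detected together with Hand2, while Hand2 was mostly detected alone. With all UMIs, 4701 cells had both, 545 Hand1 alone, 11445 Hand2 alone and 19271 neither. Hand1 without Hand2 was therefore the rare state, 10.4% of Hand1 cells, and 235 of these 545 cells had a single Hand1 UMI. Because detection depends on depth, each cell was then thinned to 10000 UMIs, which left out 1009 shallower cells. In thinned cells Hand2 was found in 71.4% of Hand1 cells (69.9 to 72.9) and in 26.1% of the others.

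Gates differed in how far Hand1 predicted Hand2. In the anterior heart field 85.4% of Hand1 cells had Hand2 (78.8 to 90.5) and 22.3% of the others, an odds ratio of 18.3 stratified by library. In smooth muscle the shares were 81.6 and 43.0%, in the posterior heart field 69.97 and 19.6%, and Hand1 cells were ahead in 6 of 6 libraries in each of these 3 gates. Cushion cells had 86.9 and 60.4% and outflow cells 81.7 and 68.4%, ahead in 5 of 6 libraries each. The exceptions were library 3 in the cushion, with 3 Hand1 cells, and library 4 in the outflow gate.

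Ventricular myocardium did not share that pattern. There 36.7% of Hand1 cells had Hand2 (32.0 to 41.6), and 41.5% of the other cells did (37.8 to 45.3). The intervals overlapped, the odds ratio was 0.80, and Hand1 cells were behind in 3 libraries and ahead in 3. Hand1-only cells were 23.5% of the gate, Hand2-only cells 26.1% and cells with both 13.6%. With all UMIs, Hand2 was detected in 88.1% of Hand1 cells and 88.6% of the others, so no difference appeared at full depth either, at a depth where most cells are positive. Without the deepest 25% of cells in each library, 102 Hand1 cells were left and the shares were 52.0 and 45.8%.

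**Figure D3:**
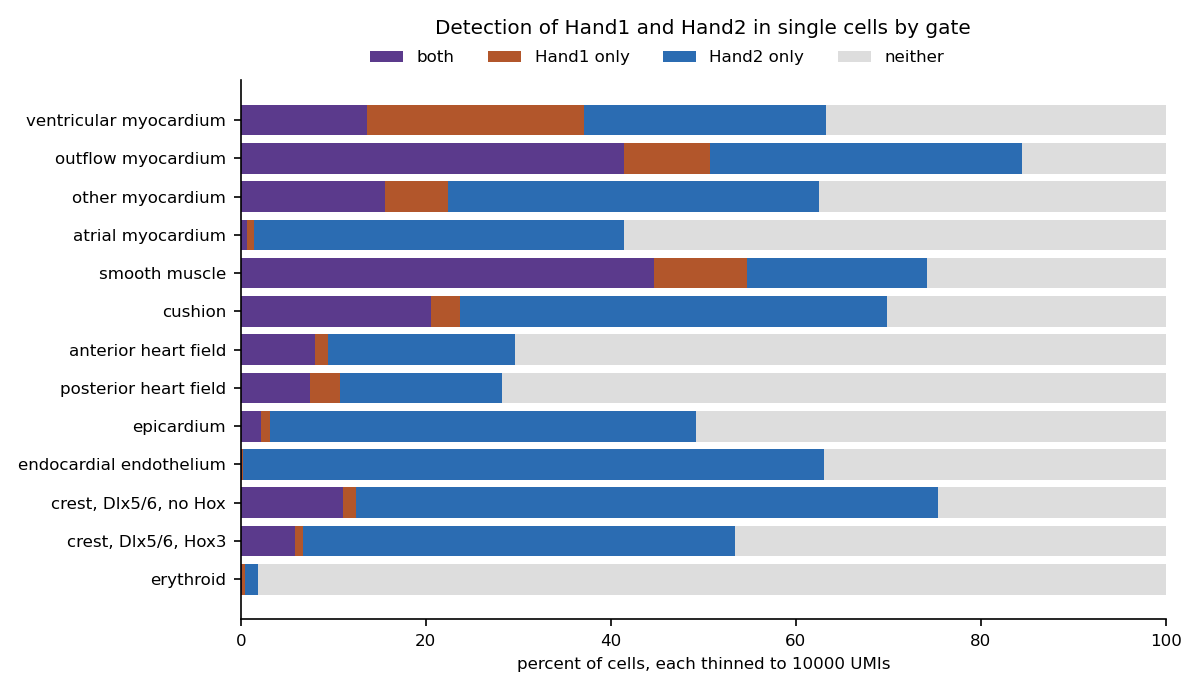
Shares of cells with both genes, Hand1 alone, Hand2 alone or neither, in percent of cells thinned to 10000 UMIs, by gate. Ventricular myocardium had the largest share of cells with Hand1 alone among the gates drawn (23.5%), and endocardial cells had Hand2 almost without Hand1.

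The non-coding neighbours of Hand2 followed its level. Hand2os1 had 82268 UMIs in 39.5% of cells, a number close to that of Hand2, but the ratio of Hand2os1 to Hand2 UMIs depended on the gate. It was 2.24 in ventricular, 2.11 in outflow, 2.33 in atrial and 2.05 in the remaining myocardium, and at least 1.78 in every library of these 4. Outside myocardium it was 1.01 in smooth muscle, 0.99 in endocardial endothelium, 0.72 in cushion, 0.66 to 1.01 in crest with Dlx5 or Dlx6, and 0.57 in epicardium. The highest library of these named gates read 1.26, in smooth muscle, below the myocardial range. Gates with few Hand2 UMIs were not as far apart: paraxial mesoderm had a ratio of 1.38 from 125 Hand2 UMIs, with libraries from 0.76 to 2.67, inside that range. Glia had a ratio of 0.38 from 336 Hand2 and 128 Hand2os1 UMIs, with libraries from 0.11 to 1.00 that spanned those of epicardium and cushion.

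Over the 23 gates, 11882 genes with at least 10 CPM in at least 1 gate were ranked by Pearson's r of log2(CPM + 1) with each member. The gates share libraries and depth, so r is a description without a test. The first 3 genes of the Hand2 ranking were Hand2os1 (r = 0.95), 5033428I22Rik (r = 0.93) and Gm34030 (r = 0.91), followed by Bambi (r = 0.83), a pseudoreceptor that dampens TGF-β family signals. In the annotation, the long non-coding genes Gm34030 (chr8:57331692-57334585) and 5033428I22Rik (chr8:57332118-57354580) are the nearest genes downstream, 7.06 and 7.49 kb from the end of Hand2 on opposite strands. They overlap, so their reads cannot be told apart with certainty. The leading genes were therefore the nearest annotated neighbours on either side, other than a pseudogene that is not in the table. The other 3 ranked genes within 200 kb, Sap30, Galnt7 and Hmgb2, lie 158 kb or more away and had r of 0.18, 0.14 and 0.06. The rest of the first 10 were Triqk, Epha7, Ugdh, Unc5b, Rhoc and Dgkk, with r from 0.78 to 0.82.

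5033428I22Rik and Gm34030 had gate preferences of their own. The first was at 85.9 CPM in outflow myocardium and 85.1 CPM in cushion, and at 25.5 CPM in Hox-free crest, where Hand2 was at 183 CPM. Gm34030 was at 64.4 CPM in smooth muscle and 40.7 CPM in Hox-free crest, and at 8.0 CPM in endocardial endothelium, where 5033428I22Rik was at 30.2 CPM.

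**Figure D4:**
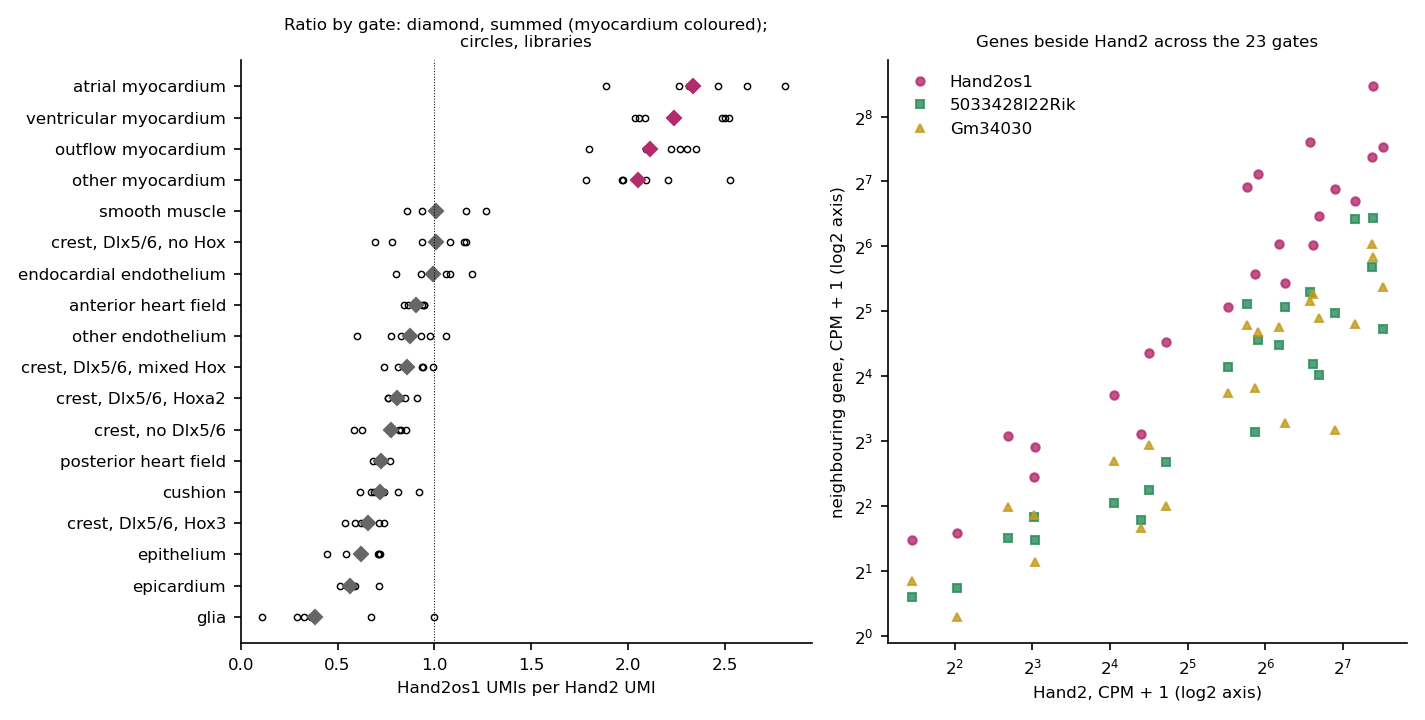
Left, Hand2os1 UMIs per Hand2 UMI in each gate with at least 300 Hand2 UMIs (diamond, summed; circles, libraries): the 4 myocardial gates lie between 2.05 and 2.33, above all others. Right, levels of the 3 genes nearest to Hand2 against Hand2 over the 23 gates, as CPM + 1 on log2 axes.

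The Hand1 ranking was led by Rgs5 (r = 0.85), a marker of the smooth muscle gate, and by Psd (r = 0.84), Synpo2 (r = 0.84), an actin-binding protein of muscle, and Smad9 (r = 0.82), a transducer of BMP signals. Gm34030 (r = 0.81) and 5033428I22Rik (r = 0.79) of the Hand2 locus were also among its first 10, with Vldlr, P3h2, Stk38l and Cux2. The members themselves had r = 0.68 with each other, which put Hand2 at rank 62 for Hand1. Of 4 ranked genes within 200 kb of Hand1, Sap30l, 18.5 kb away, had r = 0.74 (rank 25), and Larp1 had r = -0.55.

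Cells with and without a member were then compared inside 1 gate, in thinned cells. A gene was called when its level summed over the libraries differed at least 2-fold. Every library with at least 20 cells on each side also had to go in the same direction, by any amount. Only genes at 10 CPM or more on 1 side were considered. Leaving out a library removes a condition for a call, so the number of calls can rise whichever library is left out. These comparisons are descriptions without a test, and the gene lists were chosen with earlier results of these data known.

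In ventricular cells 0.218% of 8254 genes were called higher and 0.424% lower. The 35 lower calls became 66 without library 4. Of 14 measured cardiac factors and targets 1 was called, Cited1, at 471 CPM in Hand1 cells and 142 CPM in the others. Nppa, the gene of atrial natriuretic peptide, was at 1085 and 552 CPM and higher in 5 of 6 libraries, which is not a call. Tbx5 (63.0 and 42.4 CPM) and Tbx20 (274 and 193 CPM) were higher in every library, but by less than 2-fold in the summed level. Hand2 was at 51.6 and 58.2 CPM. Outside the lists the called genes included Mab21l2 (44.9 and 9.82 CPM), the gap junction gene Gja5 (11.4 and 3.67 CPM) and the pacemaker channel gene Hcn4 (19.9 and 5.57 CPM) on the higher side. On the lower side were Cck (5.96 and 48.8 CPM), Irx2 (4.22 and 20.1 CPM) and, from the arch inputs, Fgf8 (5.46 and 13.8 CPM). Genes named outside the lists here and in the next 4 paragraphs were chosen after their values were seen.

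In outflow cells 0.906% of 8829 genes were called higher with Hand1 and 0.974% lower. Library 3 was not used for direction for want of cells, and without library 4 the 80 higher calls became 132. Shox2 had no UMI in the Hand1 cells at this thinned depth and was at 102 CPM in the others. With all UMIs, 21.1% of the outflow cells with Shox2 had a Hand1 UMI. Tbx5 was the only one called of 12 cardiac factors, lower at 6.77 and 34.8 CPM. Other genes called lower included Tbx18 (0 and 18.0 CPM), Hcn4 (5.98 and 26.6 CPM) and Wnt2 (17.9 and 120 CPM). The higher side included Barx1, a homeobox gene of the arches (110.0 and 41.0 CPM), and the imprinted gene Phlda2 (132 and 12.7 CPM). Hand2 was at 220 and 134 CPM, higher in 5 of 5 libraries but by less than 2-fold in the summed level.

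Of the 3 gates compared by Hand1, smooth muscle had the most cardiac factors called. Here 1.61% of 9191 genes were called higher and 1.18% lower (108 genes, or 170 without library 1), and 6 of the 12 measured cardiac factors and targets were called, all higher. They were Isl1 (240 and 55.2 CPM), Tbx20 (179 and 47.2 CPM), Smyd1, a muscle methyltransferase (82.9 and 27.1 CPM), Gata5 (53.5 and 21.8 CPM), Nkx2-5 (21.3 and 10.1 CPM) and Gata6 (192 and 91.2 CPM). The list had a median ratio of 1.98, against 1.01 over all genes considered. The markers of the myocardial gate mostly went the other way in the same cells: of 8 markers 7 were considered, 5 were called lower and 1, Ttn, higher. Actc1 was at 312 and 1062 CPM and Tnnt2 at 95.8 and 364 CPM. The 8 markers summed to 769 CPM in Hand1 cells (libraries 417 to 1260) and 2262 CPM in the others (1791 to 3045), none was at 0 in the Hand1 cells, and their part in the result was not tested. Msx1, Msx2, Dlx2 and Gata3 were also called higher, the last at 64.0 and 18.0 CPM. Hand2 itself was at 236 and 100.3 CPM and called higher. On the lower side were Foxd1 (6.36 and 183 CPM), Tbx18 (1.75 and 55.4 CPM), Osr1, Wnt2 and Nr2f1.

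In crest with Dlx5 or Dlx6, 1.14% of 8259 genes were called higher with Hand2 and 0.63% lower. The sides differed in Hox class, and calls within a class were not made. Hand2 was detected in 74.0% of thinned cells without Hox genes, 27.9% with Hoxa2, 52.6% with Hox3 genes and 48.8% with mixed Hox patterns. Distal arch genes were called in both directions. Foxf1 (37.2 and 8.49 CPM), Msx2 (73.9 and 20.6 CPM) and Msx1 (143 and 70.6 CPM) were higher. Dlx3 (14.2 and 30.1 CPM) and Tfap2b (12.1 and 26.9 CPM) were lower. Of 8 intermediate and proximal genes, Pou3f3, a marker of the proximal arch, was at 0.57 and 13.0 CPM, and Barx1 at 157 and 382 CPM. Among the inputs of the pathway Bmp4 was higher (19.9 and 6.30 CPM). The upstream Dlx5 (110.0 and 136 CPM), Dlx6 (73.1 and 63.1 CPM) and the receptor gene Ednra (18.8 and 31.4 CPM) differed by less than 2-fold, and Dlx5 and Dlx6 were themselves used to draw the gate, as were Msx1 and Tfap2b. Id1 and Id2 were called higher, Id1 at 484 and 240 CPM. Hand1 was at 20.2 and 3.01 CPM. Outside the lists, Rgs5 was called higher with Hand2 as well (42.3 and 4.76 CPM).

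Endothelial cells with Hand2, compared over the whole endothelial gate, had 1.61% of 8797 genes called higher and 1.77% lower. The sides differed in class, since Hand2 was detected in 62.9% of thinned endocardial cells and 16.9% of other endothelial cells, and calls within a class were not made. Of 8 measured cardiac factors, Gata4, a marker of the endocardial class, Gata5, Gata6 and Tbx20 were higher and Mef2c lower. Gata5 was at 73.2 and 28.4 CPM and Tbx20 at 335 and 153 CPM. Twist1 (112 and 52.0 CPM), a relative of the Hand genes, and Msx1 were higher, and Bmp4 lower (5.48 and 23.9 CPM). Outside the lists, Cldn5, a tight junction gene (21.6 and 265 CPM), and the receptor gene Aplnr (3.04 and 58.6 CPM) were among those called lower.

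The E protein genes Tcf3, Tcf4 and Tcf12 were called in none of these 5 comparisons. They were measured in all of them, at 47.4 CPM or more in the cells with a Hand gene. Tcf4 differed most, with 202 and 351 CPM in endothelium and 226 and 347 CPM in crest, lower with Hand2 in 6 of 6 libraries in both.

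**Figure D5:**
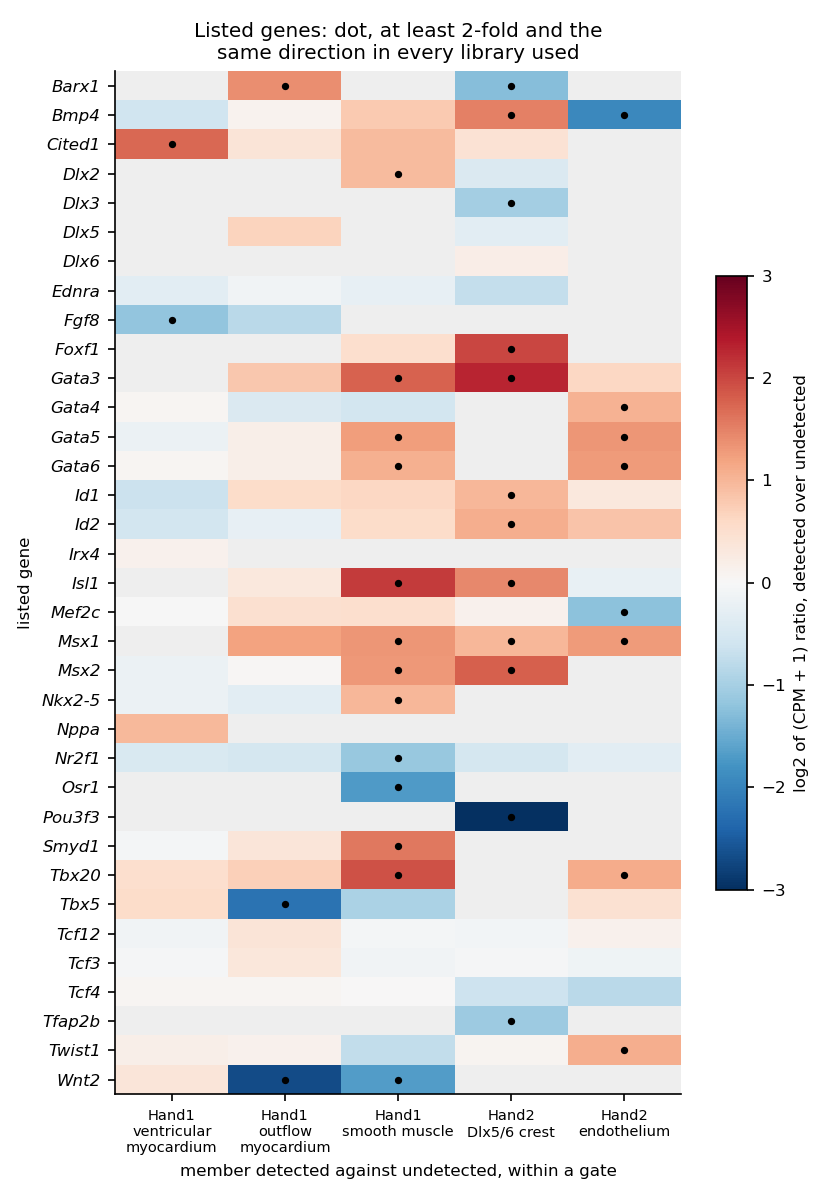
Log2 ratio of CPM + 1 in cells with a Hand gene over cells without it, for genes of the lists (rows) in the 5 comparisons (columns); a dot marks a call and grey a gene below 10 CPM on both sides. The cardiac factors called with Hand1 in smooth muscle were higher, while the distal arch genes with Hand2 in crest were called in both directions.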

How the data were processed

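Single-cell RNA of the cardiogenic region was measured with a 10x Genomics 3′ version 3 kit, per the labels' protocols. Their descriptions name a chromatin assay instead, while titles, library source and kit name RNA. Per the submitters' processing notes, CASAVA 1.8, Cell Ranger 5.0.0, Seurat 4 and the mouse build mm10 were used; sources used here do not state the annotation, the strand setting or how cells were called. The deposited values are whole counts of UMIs per gene and barcode, pooled over samples, with 1310946988 UMIs in the kept cells. All values here are sums of those counts as CPM, or shares of cells. Each cell was thinned at random to 10000 UMIs for co-detection and for comparisons of cells with and without a member. No doublet caller was run.

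A marker counted at 2 or more UMIs, or at 1 or more for Dlx and Hox genes in crest. The exception was the Hoxa2 class of crest, which needed 2 or more UMIs of Hoxa2. A cell passed with at least 6 of 8 myocardial, 5 of 6 erythroid, 4 of 7 endothelial or epicardial, 4 of 6 epithelial or cushion, or 3 of 5 neuronal markers. Thresholds were 3 of 6 for glia, myeloid, smooth muscle and anterior heart field, 3 of 7 for posterior heart field and branchiomeric muscle, and 2 of 7 for paraxial mesoderm. Crest needed 2 of 4 Dlx genes and 2 of 5 other crest genes. Of several mesenchymal gates the one with the largest share of its markers was taken, and 254 ties were left out. Ventricular cells had 3 of 4 and atrial cells 3 of 6 chamber markers, outflow cells 3 of 5, and endocardial cells 2 of 3. The hepatocyte gate, with 6 cells, is not described.

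The members and lists were chosen with earlier results of these data known. Thresholds and the genes that split gates were chosen after seeing the data. Genes named were both members, Hand2os1, called members of the lists with some uncalled ones for contrast, and the 10 most alike genes per member. The calling and ranking code was tested on simulated data. Python 3.11.15, numpy 2.4.6, scipy 1.17.1, pandas 2.3.3 and matplotlib 3.10.9 were used. Some listed genes are not reported here. The comparison of streptozotocin with vehicle was not run.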

Additional observations from a re-analysis of the deposited data

Results flagged for a closer look

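Signal of both members appeared in barcodes that the cell filter set aside and that no comparison above uses. These 17400 barcodes had a median of 2014 UMIs. Hand1 was at 34.7 CPM in them (exact Poisson interval 33.0 to 36.3) and Hand2 at 76.5 CPM (74.1 to 79.0). A count of 0 would allow 0.0613 CPM, and kept erythroid cells had 0.85 and 1.72 CPM. Over all kept cells the levels were 28.9 and 60.7 CPM, so these values do not show which cells the RNA came from. No sample of the pooled matrix can be named as a control for them.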

How the results depend on the processing

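No paired analysis was possible because no library can be linked to a sample, and so to a replicate number. Of the values that describe a gate, a co-detection share or a number of called genes, 159 stayed the same under an alternative, meaning within the counting interval for 6 main gate levels and 4 co-detection shares, or within 1.5 times for numbers of genes, and 74 did not. The levels are given as Hand1 in ventricular, outflow and smooth muscle cells, then Hand2 in outflow, endocardial and Dlx5/6 crest cells (82.3, 139, 237, 167, 118 and 91.3 CPM in the report's setting). With 1 more marker per gate they were 92.7, 108, 273, 133, 125 and 88.0 CPM. Without the deepest 25% of cells they were 73.3, 161, 249, 187, 131 and 101 CPM. Without recurring barcode sequences the ventricular, outflow, Hand2 outflow, endocardial and crest values were 86.7, 145, 174, 125 and 92.6 CPM. In thinned cells the outflow, smooth muscle, Hand2 outflow, endocardial and crest values were 151, 243.0, 178, 126 and 92.9 CPM, and with gates drawn from thinned cells, chosen after seeing the data, 126, 228, 160.0, 124 and 84.8 CPM. The median of the libraries was 85.4 CPM in ventricular cells and, for Hand2, 160.1, 121 and 87.6 CPM. The smooth muscle gate without Rgs5, also chosen after seeing the data, gave 180.1 CPM. Of the results outside these, including the other gate levels, 309 stayed the same and 223 did not. Gate levels moved by over 1.5 times in 51 cases, 35 for Hand1 and 16 for Hand2. For Hand2 these included other endothelium (25.4 CPM, and 58.4 CPM with 1 more marker), crest without Dlx5 or Dlx6 (15.6 CPM, and 30.3 CPM with gates from thinned cells) and paraxial mesoderm (5.43 and 10.2 CPM likewise). With 1 more marker the endocardial class needed all 3 of its markers, so endothelial cells with 2 of them counted as other endothelium.

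Leaving out 1 library moved these 6 levels to 76.6 to 87.3, 136 to 144, 211 to 254, 159 to 172, 116 to 121 and 86.3 to 95.01 CPM. Hand2 in Hand1 cells ranged from 34.3 to 39.1% in ventricular, 79.8 to 84.8% in outflow, 80.3 to 83.2% in smooth muscle and 84.2 to 86.4% in crest cells. With all UMIs these shares were 88.1, 97.1, 96.5 and 95.1%. They were 52.0% in ventricular cells without the deepest 25% and 75.4% in outflow cells with 1 more marker.

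Called genes, higher and lower, numbered 18 and 35 in ventricular, 80 and 86 in outflow, 148 and 108 in smooth muscle, 94 and 52 in crest and 142 and 156 in endothelial cells. At a ratio of 1.5 they numbered 57 and 96, 295 and 198, 300 and 202, 191 and 125, and 332 and 322. With a level filter of 1 CPM they were 46 and 101, 177 and 137, 213 and 147 in crest, 238 and 327 in endothelium, and 164 lower in smooth muscle. With all UMIs the endothelial numbers were 361 and 250. Without 1 library the higher calls were 18 to 21, 91 to 132, 149 to 178, 90 to 95 and 111 to 196. The lower calls were 37 to 66, 95 to 125, 108 to 170, 52 to 59 and 152 to 186. Of the 10 genes most like each member, 9 to 10 were shared without 1 library. The cause of these moves was not tested. Depth limits the co-detection shares, since a cell without a UMI may still hold the RNA.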

Other observations

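The epithelial gate held Hand1 at 7.98 CPM, and part of it sat in a small set of cells chosen here after its values were seen. In 179 epithelial cells with 2 or more Hand1 UMIs (23, 58, 15, 51, 21 and 11 in the libraries) Tac2, a tachykinin gene, was at 529 CPM, against 3.70 CPM in the 5119 epithelial cells without Hand1. Gabrp, a GABA receptor subunit gene, was at 79.0 and 0.64 CPM, and the contractile genes Acta2 and Tagln were at 247 and 11.1 CPM and at 395 and 25.8 CPM. The glucose transporter gene Slc2a1 was at 890 and 87.4 CPM. Of thinned epithelial cells with Hand1, 27.2% had Hand2, against 3.50% of the other epithelial cells, an odds ratio of 8.86 stratified by library. In this gate Hand1 made up 52.7% of the UMIs of both genes, with libraries from 26.3 to 77.2%, and the Hand1 level ranged from 1.67 to 18.1 CPM by library.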
